A study of Mus musculus with 10 samples.

Results

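The small proline-rich (Sprr) genes encode short, proline-rich proteins of the epidermal differentiation complex, the gene cluster of chromosome 3 that also holds loricrin, involucrin, filaggrin and the late cornified envelope (Lce) genes. Described here are 7 of them, Sprr1a, Sprr1b, Sprr2a3, Sprr2b, Sprr2d, Sprr2h and Sprr3, out of the 15 Sprr genes in the gene lists of all 10 libraries. They were selected on their measured levels, counted as unique molecular identifiers (UMIs) per 1000000 UMIs in basal and suprabasal cells by stage and genotype. Those levels are therefore given as a description, with no test.

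Single-cell RNA sequencing (scRNAseq) was performed on dissociated mouse back skin at embryonic stages E15.5, E16.5 and E17.5. MOF cKO embryos carried MOFfl/fl with K14Cre, which deletes MOF (gene Kat8, a histone H4 lysine 16 acetyltransferase) in cells that express Krt14-Cre, the skin epithelium, while the dermis keeps the gene. QPC cKO embryos carried QPCfl/fl with K14Cre, which deletes Uqcrq, a subunit of respiratory complex III. The controls were littermates, labelled only Control, on a mixed C57BL/6J and CD-1 background. At E15.5, controls 2 and 3 were set against MOF cKO 5 and 6, and at E16.5 controls 1 and 2 against MOF cKO 1 and 2, each number being 1 library. E17.5 was represented by a single control and a single QPC cKO library. The study's staining described MOF cKO 6 at E15.5 as mosaic for the deletion and MOF cKO 5 as complete. E16.5 libraries were made with 10x 3' v2 chemistry and the others with v3. The E15.5 libraries came from separate embryos by the study's account. For E16.5 the sources used here speak only of paired samples, so the spread between those libraries may be partly technical.

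In stratified epithelia, Sprr proteins are substrates of transglutaminases, which cross-link them beneath the plasma membrane of differentiating keratinocytes into the cornified envelope. Sprr1a and Sprr1b are the Sprr1 class, the Sprr2 genes form a tandem array of close relatives, and Sprr3 is known mainly from internal epithelia such as those of the mouth and esophagus. Sprr genes are also known to be induced in wounded or inflamed epidermis, together with the keratins Krt6a, Krt6b and Krt16.

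The 7 genes lie within 200.5 kb of chromosome 3 (92285417 to 92485895, GRCm38), in the order Sprr2a3, Sprr2b, Sprr2d, Sprr2h, Sprr1b, Sprr3 and Sprr1a. All 7 are annotated as protein coding. The Sprr2 members are on the plus strand, and Sprr1b, Sprr3 and Sprr1a are on the minus strand. Reads could be split among near-identical copies for 1 member: of the 91-base windows in the last 400 bases of its transcripts, 49.7% of those of Sprr2a3 also occurred in Sprr2a1 or Sprr2a2. The other 6 members shared no window with another Sprr gene, so the value of Sprr2a3 is the uncertain one.

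The promoters of 4 members, Sprr1a, Sprr1b, Sprr2h and Sprr2a3, are shown, of which only Sprr2a3 lacked matches to 2 short motifs. In the 250 bases before the RefSeq start, searched on both strands, the AP-1 motif TGANTCA was found in 5 of the 7 members (Sprr1a, Sprr1b, Sprr2b, Sprr2d and Sprr2h) and in 6.73% of 32536 mouse promoters. TATAAA was found in 6 of the 7 members, all but Sprr2a3, and in 12.3% of promoters. The window of Sprr2a3 ends at 92285303, while its annotated gene start is at 92285417, so the bases between were not searched. Its lack of a match therefore holds for the RefSeq start only. The octamer ATGCAAAT occurred in Sprr2b, Sprr2d and Sprr2h and in 1.62% of promoters. CACCC (the core bound by KLF factors) occurred in 4 members and 52.1% of promoters, GGAAG (ETS core) in 3 members and 64.1%, and TTCNNNGAA (STAT core) in 1 member, Sprr2a3, and 7.04%. A match is a run of letters and not a shown binding site. The 200 bases before the start follow, 5′ to 3′ on the strand of the gene, in RefSeq sequence of GRCm38.p6, with TGANTCA and TATAAA matches in capitals. Sprr1a is at chr3:92485882-92486081 (minus strand), Sprr1b at chr3:92438780-92438979 (minus strand), Sprr2h at chr3:92385485-92385684 (plus strand) and Sprr2a3 at chr3:92285104-92285303 (plus strand).
Sprr1a: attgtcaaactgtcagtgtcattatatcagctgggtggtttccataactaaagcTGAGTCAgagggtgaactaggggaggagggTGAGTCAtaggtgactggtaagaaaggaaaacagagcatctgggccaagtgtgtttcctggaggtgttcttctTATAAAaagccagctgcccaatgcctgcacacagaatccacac
Sprr1b: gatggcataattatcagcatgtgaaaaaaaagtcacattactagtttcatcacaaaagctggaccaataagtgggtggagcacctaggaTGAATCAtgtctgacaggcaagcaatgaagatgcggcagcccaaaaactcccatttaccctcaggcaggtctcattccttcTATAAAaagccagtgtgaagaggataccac
Sprr2h: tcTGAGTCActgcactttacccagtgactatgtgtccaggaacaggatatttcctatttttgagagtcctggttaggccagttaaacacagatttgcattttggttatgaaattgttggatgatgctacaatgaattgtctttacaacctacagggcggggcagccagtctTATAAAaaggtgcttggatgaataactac
Sprr2a3: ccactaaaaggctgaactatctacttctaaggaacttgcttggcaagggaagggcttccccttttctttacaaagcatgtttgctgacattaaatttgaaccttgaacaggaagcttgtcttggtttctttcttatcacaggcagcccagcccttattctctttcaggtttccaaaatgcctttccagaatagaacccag
Sprr1a held 2 AP-1 matches (starting 146 and 116 bases before the start), of which the second overlapped a CACCC match on the other strand. Sprr1b and Sprr2h held 1 AP-1 match each, and Sprr2a3 held neither capitalised motif in this window.

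The libraries held 1288 to 14611 barcodes. Cells with over 1000 and under 6000 genes and under 10% mitochondrial UMIs were kept (716 to 10653 per library). Basal cells were those with at least 10 Krt5 and Krt14 UMIs and under 10 Krt1 and Krt10 UMIs, and suprabasal cells those with at least 20 Krt1 and Krt10 UMIs. These gates are ranges of keratin counts, not cell types. The basal gate held 901 to 2584 cells per library at E15.5, 239 and 464 control but 21 and 22 MOF cKO cells at E16.5, and 2807 and 1066 cells at E17.5. The suprabasal gate held 147 to 361 cells at E15.5, 31 and 66 control but 9 and 13 MOF cKO cells at E16.5, and 190 and 72 cells at E17.5. The basal gate held cells near its limits or with dermal RNA in several libraries. In the E17.5 control, 1267 of 2807 basal cells lay within 5 UMIs of the cut and 1388 held at least 20 collagen UMIs. In E16.5 control 1 these were 75 and 80 of 239 cells, and in E16.5 MOF cKO 2 they were 0 and 10 of 22. Few suprabasal cells reached 10 UMIs of loricrin (Lor), the main granular layer protein, at E17.5 (1 of 190 in control and 0 of 72 in QPC cKO) or in E16.5 MOF cKO (1 of 9 and 0 of 13). The E17.5 pair shared 1702 barcodes, 20.7% of those of the control, while every other pair of libraries shared at most 67.

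The deleted genes were counted by 3' tags, and the labels do not say whether those tags lie in the deleted parts. Kat8 at E16.5 was at 24.1 and 14.5 UMIs per 1000000 (CPM) in control suprabasal cells and at 10.4 and 3.43 CPM in MOF cKO, which rest on 2 UMIs and 1 UMI. At E15.5, Kat8 was at 13.02 and 13.7 CPM in control basal cells and at 13.4 and 10.3 CPM in MOF cKO, which overlap. In suprabasal cells of that stage it was at 12.2 and 14.6 CPM in control and at 9.53 and 8.70 CPM in MOF cKO, which do not overlap. Uqcrq at E17.5 was at 144 CPM in control and 27.8 CPM in QPC cKO suprabasal cells.

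At E16.5, suprabasal cells of MOF cKO held the highest Sprr levels of the series. The 7 genes together were at 404 and 551 CPM in the control libraries and at 29014 and 8935 CPM in the MOF cKO libraries, with no overlap between the groups. The mean level was 477 ± 104 CPM in control and 18974 ± 14198 CPM in MOF cKO (SD, n = 2 libraries each), a log2 ratio of 5.31. It ranged from 4.23 to 5.93 when each library was left out in turn. In the dermal gate, which takes fibroblast-range cells that should not express the genes, the summed level was 1.44 and 6.11 CPM in control and 41.8 and 180 CPM in MOF cKO. One dermal-gate cell held most of the MOF cKO 2 value, which was 14.6 CPM without it. In both MOF cKO libraries the suprabasal level was thus above that of the dermal gate. Intervals on these counts cover counting error only.

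**Figure D1:**
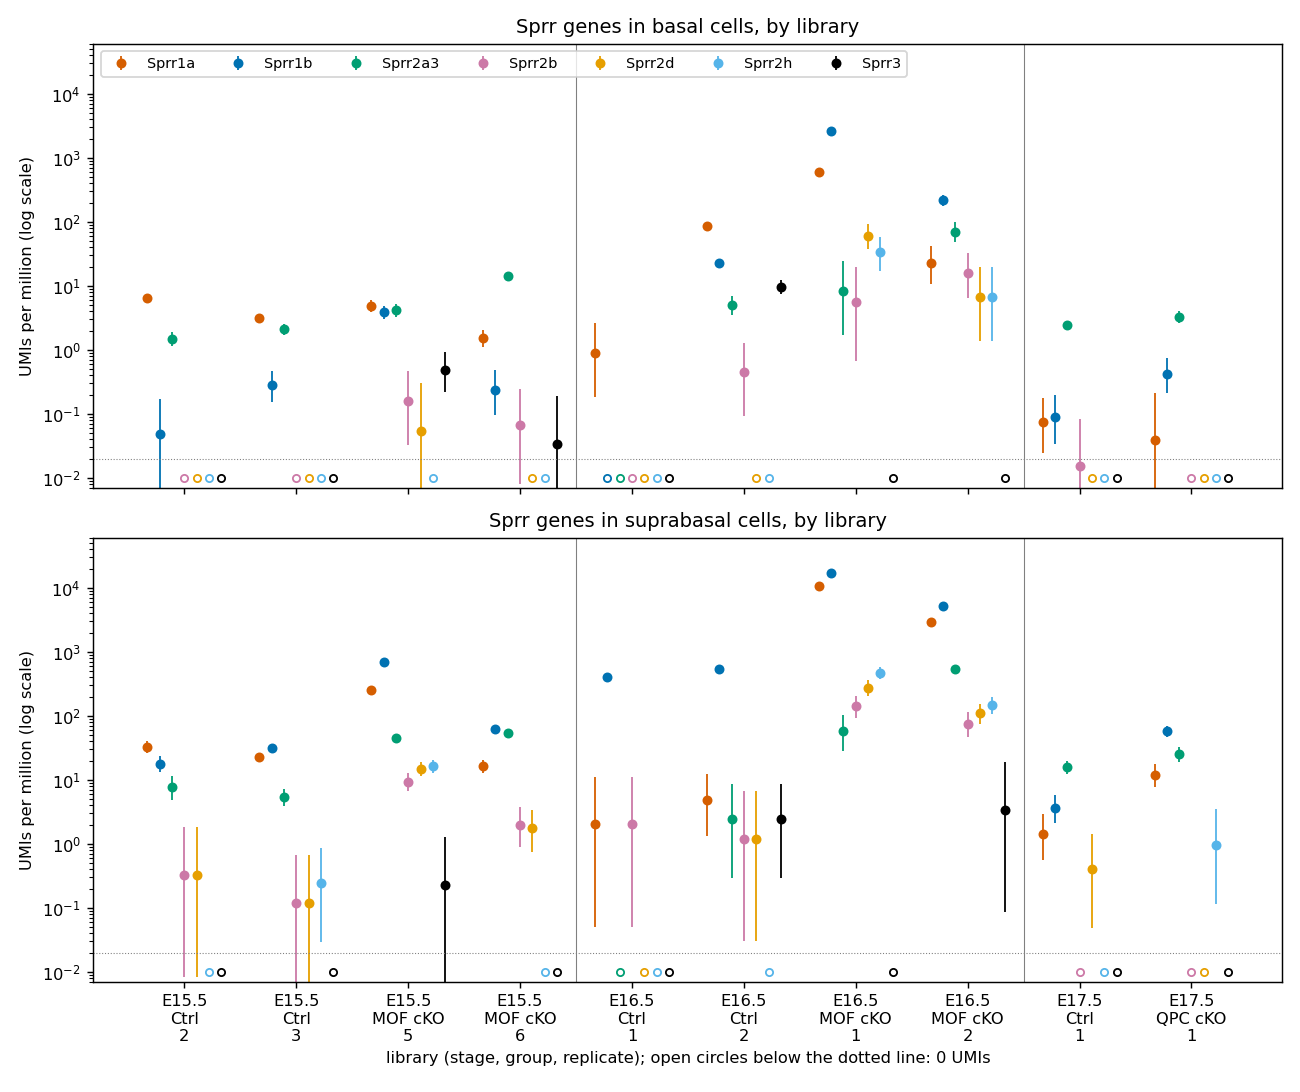
Level of each of the 7 Sprr genes in basal (upper panel) and suprabasal (lower panel) cells of every library, as UMIs per 1000000 on a log axis with exact 95% Poisson intervals as bars. Open circles mark a count of 0. At E16.5 the suprabasal MOF cKO points of Sprr1a stand at 10767 and 2898 CPM, against 2.01 and 4.84 CPM in control.

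The Sprr1 class carried most of this signal. Sprr1b, the one member with a sizeable control level, was at 400.03 and 539 CPM in control and at 17308 and 5166 CPM in MOF cKO suprabasal cells at E16.5. Its mean was 23.9-fold higher in MOF cKO. Sprr1a was at 2.01 and 4.84 CPM in control, which is 1 and 4 UMIs, and at 10767 and 2898 CPM in MOF cKO. In both genes the lower MOF cKO library lay above the higher control. Sprr1b was detected in 8 of 31 and 25 of 66 control cells and in 9 of 9 and 11 of 13 MOF cKO cells.

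The Sprr2 class was close to absent in control suprabasal cells at E16.5. No Sprr2h UMI was counted in suprabasal cells of the controls, and the gene stood at 467 and 147 CPM in MOF cKO, which is at least 136-fold higher against a floor of 3 counts over the control group. Sprr2d was at 0 and 1.21 CPM in control and at 275 and 110 CPM in MOF cKO. Sprr2b was at 2.01 and 1.21 CPM in control and at 140 and 75.4 CPM in MOF cKO. Control and MOF cKO did not overlap for any of these 3 genes. Sprr2a3 was at 0 and 2.42 CPM in control and at 57.1 and 534 CPM in MOF cKO, with MOF cKO 2 the higher library, whereas the 5 members above were higher in MOF cKO 1. Sprr3 was at 0 and 2.42 CPM in control and 0 and 3.43 CPM in MOF cKO, so its groups overlapped.

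In this gate at E16.5, 6 members passed the low-count filter, and all 6 were above both control libraries in both MOF cKO libraries. Of the 4266 genes tested, 16.1% had that order. The genes were chosen on these levels. All of the 6 but Sprr1b had 0 to 5 control UMIs, so they passed the filter only through the MOF cKO libraries. Their order thus followed from the filter, and nothing is read from this or the next differences. In basal cells at E16.5 the order held in 4 of the 5 members that passed the filter, against 10.6% of 9454 genes. Of those, Sprr2d and Sprr2h had no control UMI, so their order was fixed in the same way. At E15.5 it held in 2 of 3 members in suprabasal cells, against 16.7% of 10819 genes, and in 1 of 2 members in basal cells, against 17.7% of 14364 genes.

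The mix of Sprr genes also differed between the groups. In control suprabasal cells at E16.5, Sprr1b made up 99.005% and 97.8% of the UMIs of the 7 genes and Sprr1a 0.498% and 0.879%. In MOF cKO, Sprr1b made up 59.7% and 57.8% and Sprr1a 37.1% and 32.4%. At E15.5 the controls were mixed, with 55.6% and 38.2% from Sprr1a and 30.3% and 52.1% from Sprr1b. Sprr2a3 made up 12.9% and 8.85% in those controls and 4.41% and 39.7% in MOF cKO 5 and 6, so its share overlapped between the groups. At E17.5 Sprr2a3 made up 74.3% in control and 26.6% in QPC cKO, where Sprr1b made up 59.8%. A UMI tags 1 molecule at its 3' end, so these shares are not scaled by gene length.

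**Figure D2:**
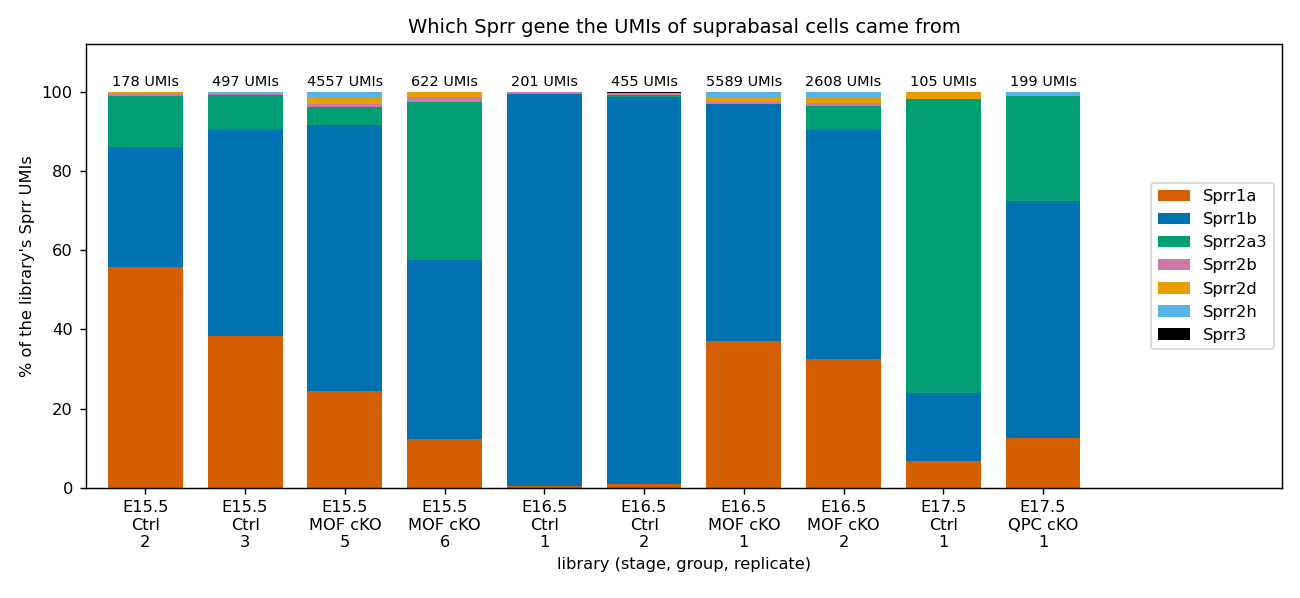
Percent of the UMIs of the 7 Sprr genes that came from each gene, in the suprabasal cells of every library, as stacked bars that sum to 100. Sprr1b fills 99.005% and 97.8% of the E16.5 control bars, whereas Sprr1a takes 37.1% and 32.4% in MOF cKO.

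At E15.5, the summed suprabasal Sprr level was higher in both MOF cKO libraries than in both controls, and most of the difference lay in 1 library. The 7 genes together were at 58.8 and 60.1 CPM in control, at 1034 CPM in MOF cKO 5 and at 135 CPM in MOF cKO 6, the embryo described as mosaic. The log2 ratio of the means was 3.30, and it was 1.18 without MOF cKO 5 and 4.12 without MOF cKO 6. Dermal fibroblast markers also differed in this gate, at 1020 and 687 CPM in control and 2161 and 1929.9 CPM in MOF cKO. Of these, 6 of 6 had a positive log2 fold change (median 1.43) and an edgeR p under 0.05 before adjustment. A positive fold change was found for 3 of 3 immune, 1 of 3 melanocyte, 1 of 3 hair follicle and 0 of 5 erythroid markers tested. None of these markers passed the edgeR test after adjustment (DESeq2 passed Col1a1, Col1a2, Col3a1 and Lyz2). The part of immune RNA in these Sprr values was not tested. Of the 12 MOF cKO 5 cells with at least 100 Sprr UMIs, 4 held 114 to 294 collagen UMIs. Without cells of at least 1% collagen UMIs the Sprr levels were 59.9 and 60.5 CPM in control and 1080.3 and 139 CPM in MOF cKO. Sprr1b was at 17.8 and 31.3 CPM in control and at 695 and 61.3 CPM in MOF cKO. Sprr1a overlapped between the groups, at 32.7 and 23.0 CPM in control and at 253 and 16.52 CPM in MOF cKO. Sprr2a3 was at near levels in the 2 MOF cKO libraries, 45.6 and 53.7 CPM, against 7.602 and 5.32 CPM in control. Sprr2h was at 0 and 0.242 CPM in control, 16.3 CPM in MOF cKO 5 and 0 in MOF cKO 6, so it overlapped too. Sprr2b stood at 0.331 and 0.121 CPM in control and 9.305 and 1.96 CPM in MOF cKO, and Sprr2d at 0.331 and 0.121 CPM against 14.98 and 1.74 CPM.

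Basal cells held little Sprr RNA in most libraries. At E15.5 the summed level was 7.92 and 5.48 CPM in control and 13.7 and 15.9 CPM in MOF cKO, a log2 ratio of 1.14. Sprr2a3 made up 88.4% of it in MOF cKO 6, at 14.1 CPM, compared with 1.48 and 2.08 CPM in control and 4.18 CPM in MOF cKO 5. Sprr1a, at 6.39 and 3.11 CPM in control and 4.87 and 1.51 CPM in MOF cKO, overlapped between the groups. Dermal cells were at 0.142 to 1.22 CPM at this stage. In this gate 6 of 6 fibroblast markers (median log2 fold change 0.84), 4 of 4 endothelial (1.14), 4 of 4 melanocyte (0.87), 5 of 5 erythroid (0.44) and 5 of 6 immune markers (0.48) had a positive difference in MOF cKO, as did 1 of 6 hair follicle markers (-0.69). None of them passed the edgeR test (DESeq2 passed Col1a2, Col3a1 and Pthlh), and their part in the Sprr values was not tested. At E16.5 the basal values were 0.894 and 123 CPM in control and 3367 and 341 CPM in MOF cKO, the latter from 21 and 22 cells. Markers of other cells also differed between these libraries: the immune markers were at 188 and 32.4 CPM in control and 144 and 954 CPM in MOF cKO (5 of 5 tested with a positive fold change, median 2.10), and the fibroblast markers at 9720 and 2261 CPM against 906 and 1389 CPM (0 of 6, -1.80). A positive fold change was found for 0 of 5 erythroid (-1.59), 0 of 4 endothelial (-1.34) and 1 of 6 hair follicle markers (-1.27). None of these markers passed the edgeR test (DESeq2 passed Dcn, Lum, Lyz2 and Lhx2), and their part in the basal Sprr values was not tested. In control 2, a single cell held 768 of the 835 UMIs, and without the highest cell of each library the controls were at 0.5996 and 9.92 CPM and the MOF cKO libraries at 2212 and 89.6 CPM. Without the 2 highest cells, MOF cKO 2 was at 27.1 CPM, close to the 14.5 CPM of its dermal gate treated in the same way, while MOF cKO 1 stayed at 947 CPM. Sprr2d and Sprr2h had no UMI in either basal control and were at least 114-fold and 67.6-fold higher in MOF cKO, from 25 and 15 UMIs. Those values rest on few cells: 1 cell held all 22 Sprr2d UMIs of MOF cKO 1, 1 cell held all 3 of MOF cKO 2, and 3 cells held 14 of the 15 Sprr2h UMIs.

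Within E15.5 and within E16.5, the share of suprabasal cells with at least 1 UMI of the 7 genes was higher in both MOF cKO libraries than in both controls. At E15.5 the share was 36.1% and 29.1% in control, 71.3% (134 of 188 cells) in MOF cKO 5 and 42.7% (91 of 213) in MOF cKO 6. At E16.5 it was 8 of 31 and 30 of 66 cells in control, and 9 of 9 and 12 of 13 cells in MOF cKO. After thinning each cell to 5000 UMIs the E16.5 shares were 17.04% and 33.3% in control and 99.8% and 86.0% in MOF cKO, and the E15.5 shares were 18.1% and 12.7% in control and 51.4% and 22.0% in MOF cKO. Dermal cells of the E16.5 MOF cKO libraries were positive in 237 of 543 and 184 of 1127 cells, which sets the background of these shares. The basal share of MOF cKO 2 was 31.8% (7 of 22 cells, Wilson 95% interval 16.4% to 52.7%), and its dermal interval was 14.3% to 18.6%, so the intervals overlapped.

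Most suprabasal cells of the E16.5 MOF cKO libraries held many Sprr UMIs, unlike those of the other libraries. Cells with at least 10 UMIs of the 7 genes made up 16.1% and 12.1% of control suprabasal cells at E16.5 and 88.9% (8 of 9) and 76.9% (10 of 13) in MOF cKO. At E15.5 they made up 2.04% and 3.32% in control, 33.0% in MOF cKO 5 and 7.98% in MOF cKO 6. The median suprabasal cell held 490 UMIs of the 7 genes per 10000 in MOF cKO 1 and 98.6 in MOF cKO 2 at E16.5, and 0 in both controls. One MOF cKO 2 cell gave them 1119 of its 15946 UMIs, which is 7.02%. Without the highest cell of each library the E16.5 suprabasal levels were 218 and 397 CPM in control and 24259 and 5396 CPM in MOF cKO.

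**Figure D3:**
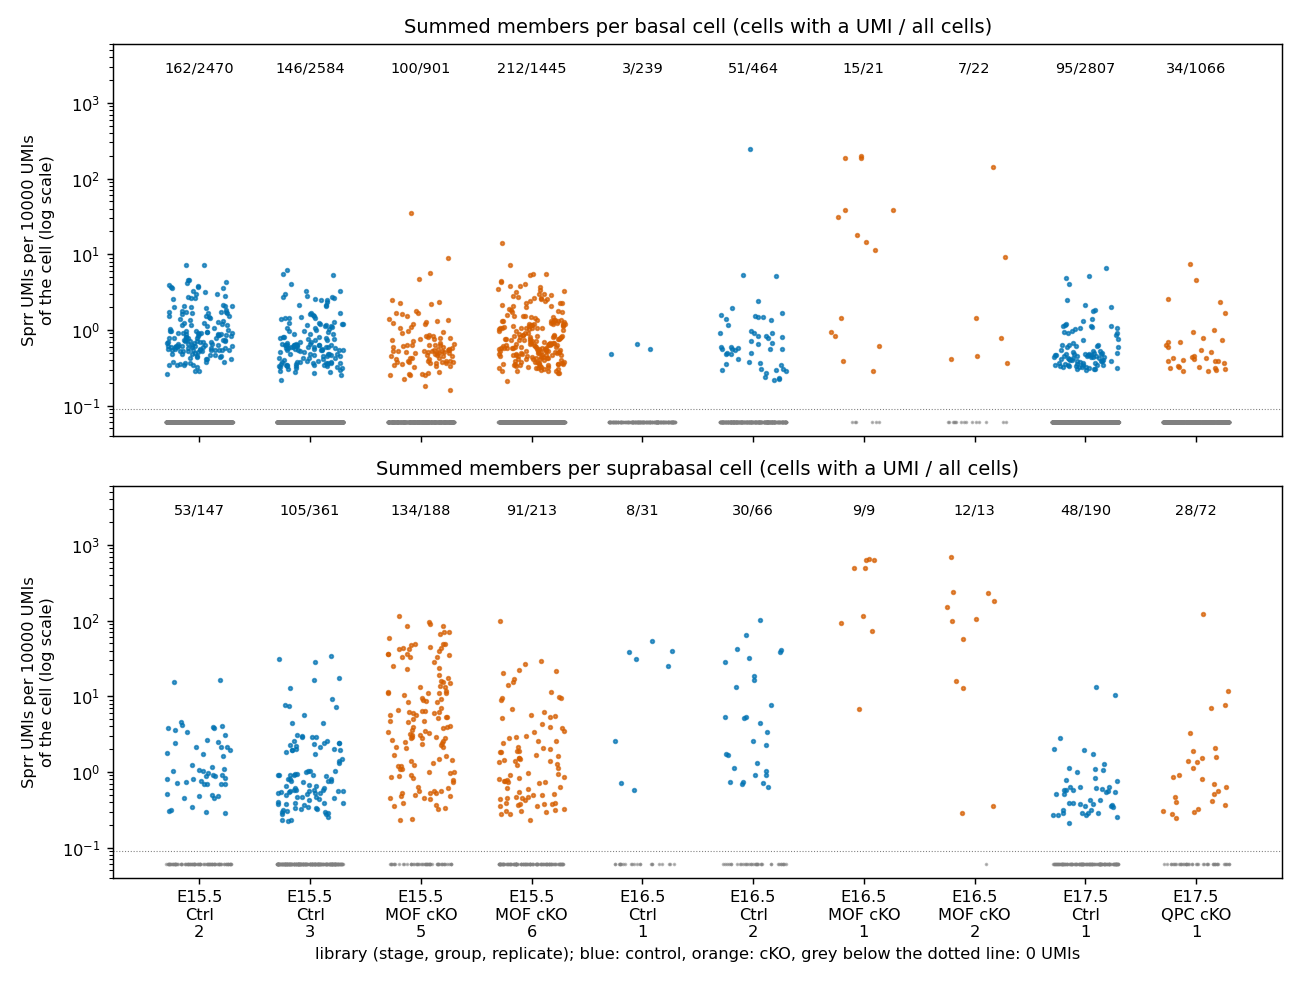
UMIs of the 7 Sprr genes per 10000 UMIs of each cell on a log axis, by library, in basal (upper panel) and suprabasal (lower panel) cells, with cells at 0 in grey and the number of cells with a UMI of all cells above. In the lower panel the E16.5 MOF cKO libraries have such UMIs in 9 of 9 and 12 of 13 cells, compared with 8 of 31 and 30 of 66 in control.

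Within the suprabasal gate at E16.5, most control Sprr UMIs lay in cells with at least 10 Lor UMIs. In MOF cKO most of those in this gate lay in cells below that cut. The gate held 34.8% and 30.5% of all Sprr UMIs of the control libraries, and 73.5% and 46.3% in MOF cKO. In control, the 8 and 18 cells with at least 10 Lor UMIs held them at 1464 and 1951 CPM, and the 23 and 48 cells below that cut at 16.47 and 36.4 CPM. In MOF cKO, only 1 cell of library 1 and none of library 2 reached 10 Lor UMIs, and the 8 and 13 cells below it held the 7 genes at 29441 and 8935 CPM. The 1 cell above the cut held them at 9298 CPM, from 38 UMIs. Lor itself was far lower in MOF cKO, so this split cannot show whether the cells differ in kind. At E15.5, both kinds of cell were present in every library. Cells with at least 10 Lor UMIs were at 204 and 577 CPM in control and 2483 and 604 CPM in MOF cKO, and cells below it at 53.0 and 32.6 CPM in control and 778 and 97.3 CPM in MOF cKO.

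In E16.5 MOF cKO, 13 suprabasal cells held at least 100 UMIs of the 7 genes each. Each of them also held 182 to 1323 Krt6b UMIs, at least 84 Krt6a UMIs and 96 to 2666 Krt16 UMIs, and 0 to 3 Lor UMIs. They carried 153 to 2363 Krt5 and Krt14 UMIs beside 54 to 646 Krt1 and Krt10 UMIs, so they held keratins of both layers. The basal part was mostly Krt14. Krt5 was at 431 UMIs in 1 cell of MOF cKO 1, at 345 UMIs in 1 cell of MOF cKO 2 and at 0 to 6 UMIs in the others. The 1 control suprabasal cell past 100 UMIs, in control 2, held 144 Sprr1b UMIs, 3984 Lor UMIs and no Krt6b. Of the 7 and 9 cells with Sprr1a in the E16.5 MOF cKO libraries, 5 and 6 had Sprr2b and 6 and 4 had Sprr2h. Sprr1b was in 9 of 9 and 11 of 13 cells of that gate, so its overlap with Sprr1a carries no information there. At E15.5, 79 of 90 Sprr1a-positive suprabasal cells of MOF cKO 5 (87.8%) also had Sprr1b, compared with 34.7% of those without Sprr1a. In the E15.5 controls the shares were 10.0% and 17.2% against 12.0% and 7.7%.

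Sprr3 followed another set of cells. Over all libraries, 416 of its 446 UMIs in kept cells came from 6 of the 13 cells with at least 10 UMIs of Krt4 and Krt13, keratins in the list of periderm markers. The other 7 such cells, all in the E17.5 control, held no UMI of Sprr3 or of any other of the 7 genes. The 6 were 1 cell of MOF cKO 5, 2 and 1 cells of the E16.5 controls, and 1 cell of each E16.5 MOF cKO library. The control 2 cell that dominated the basal gate was one of them and held 561 Sprr1a, 143 Sprr1b, 64 Sprr3 and 442 Krt13 UMIs. The MOF cKO 2 cell, which fell in the dermal gate, held 1539 Sprr1a, 402 Sprr1b, 287 Sprr3, 758 Krt4 and 771 Krt13 UMIs. None of the 6 was in a suprabasal gate. Krt6b was at 0 in the MOF cKO 2 cell and at 5 UMIs in the control 2 cell, and Krt16 was at 0 in both. The same cells held 604 and 499 Krt6a UMIs. Without cells of at least 10 Krt4 and Krt13 UMIs, a choice made after seeing the data, the E16.5 log2 ratio of the 7 genes was 8.42 instead of 4.90 in basal cells and remained 5.31 in suprabasal cells.

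No test could be made at E17.5, where each group is a single library. Suprabasal Sprr UMIs were at 21.1 CPM in control and 95.3 CPM in QPC cKO, a ratio of 4.52 (95% interval 3.55 to 5.79, counting error only). In the same gate 4 of 6 fibroblast and 4 of 6 hair follicle markers were at least 2-fold lower in QPC cKO (median log2 ratios -1.20 and -1.33) and 3 of 3 melanocyte markers at least 2-fold higher (1.42). Of all 10513 genes with enough UMIs there, 506 were at least 2-fold lower. Their part in the Sprr values was not tested. Without the 2 highest cells of each library the levels were 16.8 and 56.3 CPM, and without the barcodes that both libraries share they were 21.8 and 95.5 CPM. Sprr1b was at 3.61 CPM in control and 57.0 CPM in QPC cKO, 15.8-fold higher (9.57 to 27.5). Sprr1a was at 1.40 and 12.0 CPM, 8.52-fold higher (3.58 to 23.3), from 7 and 25 UMIs. Sprr2a3, the main member in this control, was at 15.6 and 25.4 CPM, 1.62-fold higher (1.12 to 2.33). Sprr2h had 0 and 2 UMIs, Sprr2d 2 and 0, and Sprr2b and Sprr3 none. At least 2-fold higher levels were found for 2 of the 3 members with 20 or more UMIs, and for 1.9% of 10513 genes. In basal cells Sprr2a3 was at 2.45 CPM in control and 3.23 CPM in QPC cKO, 1.32-fold higher, so 0 of 1 member with enough UMIs passed 2-fold, against 3.59% of 15860 genes. The summed basal level was 2.63 and 3.69 CPM, and its direction reversed without collagen-rich cells and with a stricter mitochondrial limit. In that gate 6 of 6 fibroblast (median log2 ratio -2.61), 4 of 4 endothelial (-1.55) and 4 of 6 immune markers (-1.45) were at least 2-fold lower in QPC cKO, and 5 of 5 erythroid (3.31) and 4 of 6 hair follicle markers (1.27) at least 2-fold higher. Of all 15860 genes with enough UMIs there, 2711 were at least 2-fold lower. Their part in the basal values was not tested. The gates hold only part of the Sprr UMIs of this stage: 424 of 752 in control and 1206 of 1705 in QPC cKO were in cells of 6000 or more genes, which the filter removed.

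The stress keratins Krt6a, Krt6b, Krt16 and Krt17 together were at 1644 and 1156 CPM in control and 78227 and 41170 CPM in MOF cKO suprabasal cells at E16.5. At E15.5 they were at 1165 and 541 CPM against 4429 and 592 CPM, where the sum of MOF cKO 6 lay between the controls. In the controls and MOF cKO 6 that sum was mostly Krt17, at 1086 and 492 CPM in control and 463 CPM in MOF cKO 6. Krt16 in MOF cKO 6 lay above both controls, as did the summed Sprr level. At E17.5 the 4 stress keratins were at 3046 CPM in control and 5324 CPM in QPC cKO, a sum that is mostly Krt17. Krt6a went from 3.41 to 91.9 CPM there, 27.0-fold higher (16.4 to 47.2), and 2 of the 4 genes, Krt6a and Krt6b, were at least 2-fold higher (median log2 ratio 2.30 over the 4). In the edgeR quasi-likelihood test with Benjamini-Hochberg adjustment over all genes, all 4 rose in suprabasal cells at E16.5 (median log2 fold change 10.13, against -0.05 over all genes tested). Krt6a rose by a log2 fold change of 11.74 ± 0.90 (SE, adjusted p = 0.00995), Krt16 by 8.52 ± 1.18 (adjusted p = 0.018) and Krt17 by 2.77 ± 0.54 (adjusted p = 0.0404). Krt6b had no UMI in control and 6978 in MOF cKO, at least 6945-fold higher (adjusted p = 0.0112). In fits that leave out 1 library, the lone library left in a group is assumed to vary like the other group. Krt6a and Krt6b passed in all 4 such fits, Krt16 did not pass without MOF cKO 1 (edgeR adjusted p = 0.0683), and Krt17 did not pass without control 2, without either MOF cKO library or with no upper limit on genes. In that gate 143 genes rose (3.35% of those tested) and 29 fell (0.68%). In basal cells 23 genes rose (0.243%) and none fell (0%), while 1923 had p under 0.05 before adjustment and DESeq2 passed 295. The 23 included Krt6b (log2 fold change 11.29 ± 1.10, adjusted p = 0.0466) and Krt16 (8.83 ± 0.90, adjusted p = 0.0466), neither of which passed without MOF cKO 1 or without MOF cKO 2. Few cells held much of both: 1 basal-gate cell of MOF cKO 2 held 280 Krt6b and 356 Krt16 UMIs. In MOF cKO 1, 2 cells held 398 and 175 Krt6b UMIs and 413 and 404 Krt16 UMIs. Over all E16.5 basal cells, Krt6b had 1202 UMIs and Krt16 had 2762. At E15.5 no gene passed in either gate (0% in both), while 1309 genes in basal and 836 in suprabasal cells had an unadjusted p under 0.05 and DESeq2 called 113 and 49. Krt16 at E15.5 was at 71.4 and 46.0 CPM in control and at 1808 and 123 CPM in MOF cKO suprabasal cells (edgeR adjusted p = 0.631).

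The other Sprr genes and the rest of the epidermal differentiation complex split at E16.5. Of the 8 other Sprr genes listed in the files, 2 passed the low-count filter in suprabasal cells, and they passed it only through the MOF cKO libraries, where they were high. Sprr2a1 was at 0 and 0 CPM in control and 83.1 and 182 CPM in MOF cKO, at least 58.4-fold higher. Sprr2a2 was at 0 and 1.21 CPM in control and 25.96 and 92.5 CPM in MOF cKO. All of their transcript windows also occur in another of Sprr2a1, Sprr2a2 and Sprr2a3, so these 3 genes are not separate measurements, and like the 7 genes they are given as a description, with no test. The neighbouring cornified envelope and filaggrin-family genes went the other way: of 14 tested from a list of 34, 6 fell and 0 rose (median log2 fold change -9.26, or -7.51 with genes at 0 set to their bound). Of all genes tested in this gate, 0.68% fell and 3.35% rose. Lor was at 39484 and 24479 CPM in control and at 145 and 51.4 CPM in MOF cKO, and fell by 7.81 ± 0.93 on the log2 scale (edgeR adjusted p = 0.0112). Hrnr, a filaggrin-like protein gene, fell by 7.36 ± 0.80, and Lce1a1 fell by 9.67 ± 2.02. Lce1m had 4764 UMIs in control and none in MOF cKO, at least 745-fold lower. Hrnr passed in all 4 fits that leave out 1 library, whereas Lor (edgeR adjusted p = 0.0577 and 0.0546), Lce1a1 and Lce1m did not pass without MOF cKO 1 or without MOF cKO 2. In basal cells at E16.5, Ivl (involucrin, an early envelope precursor) rose by a log2 fold change of 6.12 ± 0.46 (edgeR adjusted p = 0.0466), but did not pass without either MOF cKO library. That rise rests on few cells. Of 79 Ivl UMIs in all, 1 cell of MOF cKO 2 held 31, and 2 cells of MOF cKO 1 held 12 and 11.

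**Figure D4:**
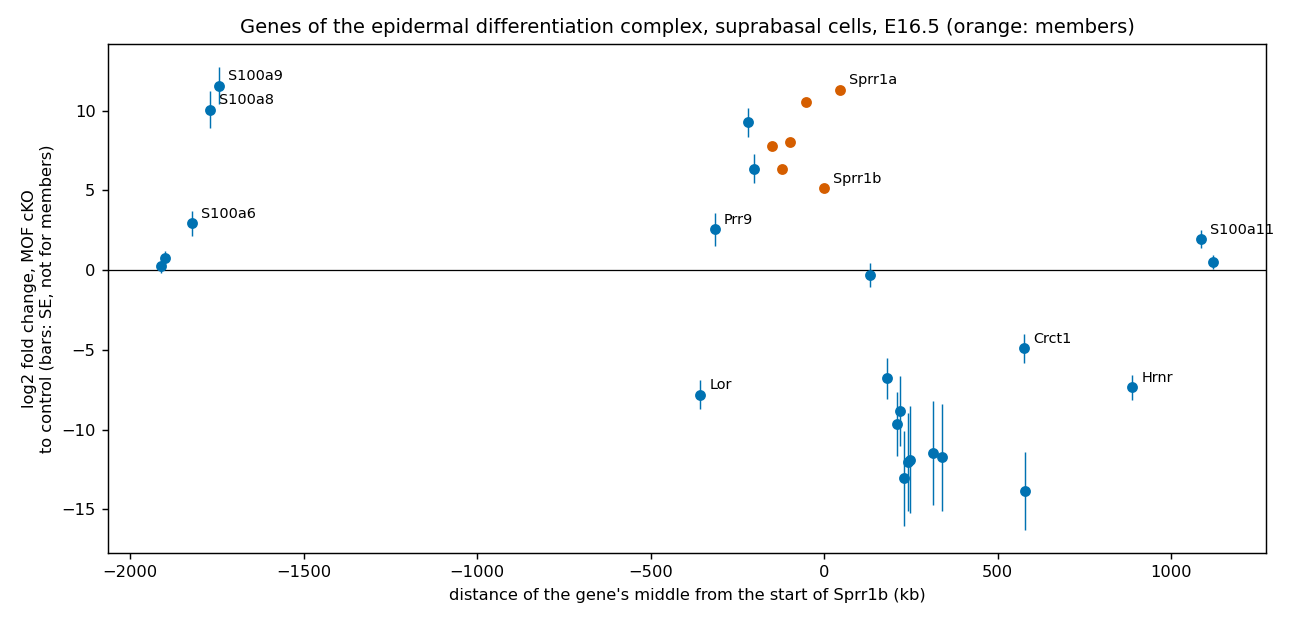
Log2 fold change (MOF cKO to control) in suprabasal cells at E16.5 for genes of the epidermal differentiation complex, against the distance in kb of the middle of each gene from the start of Sprr1b, with SE as bars for genes other than the 7. The 6 of the 7 genes that passed the low-count filter (orange, a description) lie above 0, and Lor, which fell by 7.81, lies below it.

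Of the S100 calcium-binding protein genes of the complex, 2 of 7 tested rose in suprabasal cells at E16.5 (list median 1.95), against 3.35% of all genes tested. S100a9 was at 0 and 3.63 CPM in control and 7408 and 2926 CPM in MOF cKO (edgeR adjusted p = 0.0112), and S100a8 was at 2.01 and 2.42 CPM against 3037 and 644 CPM (adjusted p = 0.0112). Both are also abundant in myeloid cells. The 6 immune markers were at 18.1 and 21.8 CPM in control and 72.7 and 99.4 CPM in MOF cKO in this gate. Ptprc had 1 UMI in control and none in MOF cKO, too few to compare. The 1 immune marker that could be tested, Lyz2, rose from 26 UMIs in all, at 8.04 and 4.84 CPM in control and 31.1 and 41.1 CPM in MOF cKO (log2 fold change 3.001 ± 0.53, edgeR adjusted p = 0.0314), and did not pass without control 1, control 2 or MOF cKO 1. The part of immune RNA in the S100 result was not tested.

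Among cross-linking and desmosomal genes, 1 of 10 tested rose and 1 fell, where 3.35% of all genes tested rose and 0.68% fell. Tgm1, a transglutaminase that cross-links Sprr proteins, was at 68.3 and 65.4 CPM in control and at 280 and 168 CPM in MOF cKO (log2 fold change 2.26 ± 0.45, edgeR adjusted p = 0.0417). Cdsn, a corneodesmosome protein gene, fell by 3.69 ± 0.50 (adjusted p = 0.0173). Of 24 tested regulators of epidermal differentiation, 2 rose, against the same 3.35% of all genes. Elf3, an epithelial ETS factor, was at 2.01 and 4.84 CPM in control and 51.9 and 27.4 CPM in MOF cKO (3.69 ± 0.71, edgeR adjusted p = 0.0378), from 23 UMIs in all. Stat3 rose by a log2 fold change of 2.26 ± 0.44 (adjusted p = 0.039). Tgm1 did not pass without control 2 or MOF cKO 1, and Cdsn did not pass without either MOF cKO library. Stat3 did not pass without control 2, MOF cKO 1 or MOF cKO 2, nor with no upper limit on genes (edgeR adjusted p = 0.0829) or when scaled by library size alone (0.0634). Elf3 did not pass without control 1, control 2 or MOF cKO 2, and without MOF cKO 1 it was under the low-count filter. The median over the 24 was 0.50. In basal cells at E16.5 no S100, cross-linking or regulator gene passed by edgeR, while 6 of 10, 5 of 8 and 7 of 29 tested had p under 0.05 before adjustment (20.3% of all genes tested) and DESeq2 passed 3 of each (3.12% of all genes) (S100a8, S100a9 and S100a11, then Dsp, Tgm1 and Tgm3, then Ehf, Fosl1 and Grhl1). At E15.5 no gene of these lists, the envelope genes or the stress keratins passed by edgeR in either gate. DESeq2 passed Krt16, Fosb and Fosl1 in basal and Tgm1, Fosl1 and Ovol1 in suprabasal cells at that stage. These DESeq2 names were chosen after their values were seen.

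**Figure D5:**
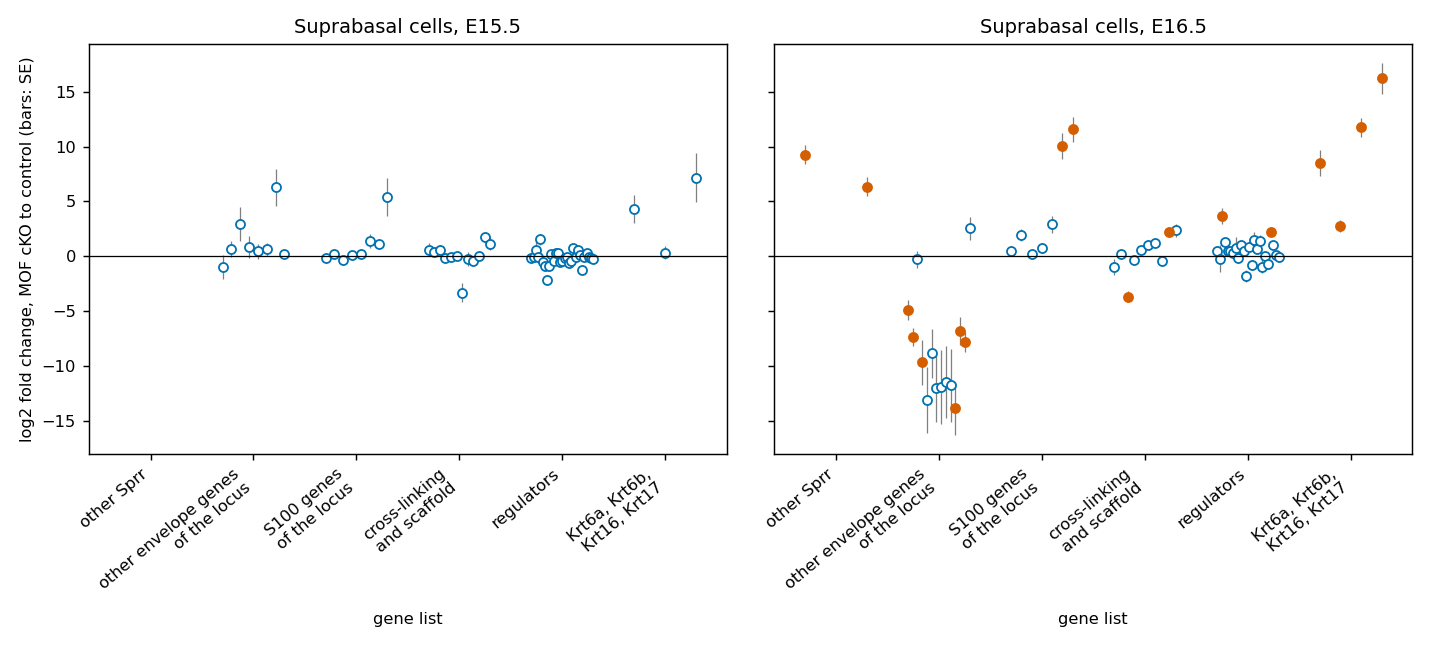
Log2 fold change (MOF cKO to control) with SE of the tested genes of each list in suprabasal cells at E15.5 and E16.5. Filled orange points have an edgeR adjusted p under 0.05, and the value of a gene at 0 in a group depends on the prior count. At E16.5 all 4 stress keratins are filled above 0 and 6 envelope genes are filled below 0, and at E15.5 no point is filled.

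Among 7726 genes with a mean of at least 10 CPM, the 8 whose pattern over the 20 library-by-gate values was most like the summed Sprr level were Csta1 (Pearson r of log2(CPM + 1) 0.95), Cstb (0.94), Dstn (0.93), Urah (0.93), Pinlyp (0.93), Cst6 (0.92), Tuba8 (0.91) and Tgm1 (0.91). Csta1, Cstb and Cst6 encode cystatins, which inhibit cysteine proteases. All 8 were highest in suprabasal cells of MOF cKO 1 at E16.5, with Csta1 at 4797 CPM there. The points are 2 gates of the same 10 libraries and are not independent. The members' own r with their sum, which contains them, was 0.98 for Sprr1b, 0.88 for Sprr1a and 0.83 to 0.87 for Sprr2b, Sprr2d and Sprr2h, but 0.64 for Sprr2a3 and 0.28 for Sprr3.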

How the data were processed

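The authors deposited 10x Genomics UMI counts per gene and barcode for 10 libraries (per the labels and their processing notes: Cell Ranger 6.1.2, with 1.3.1 also named for the E16.5 and E17.5 libraries, and mm10). Genes listed numbered 27998 at E16.5 and 32285 otherwise. The 7 Sprr genes and all gene lists were chosen with earlier results of these data known. Counts were summed per library and gate, and CPM is the UMIs of a gene per 1000000 UMIs of the gate's cells, with exact Poisson intervals. Shares have Wilson 95% intervals, and thinned shares are expected shares at 5000 UMIs per cell, leaving out cells below it. Dermal cells had at least 20 collagen UMIs (Col1a1, Col1a2, Col3a1) and under 10 of each keratin pair. No doublet caller was run.

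Each stage and gate was tested alone, control against MOF cKO, with edgeR 4.0.16 (R 4.3.3): filterByExpr, TMM, quasi-likelihood test and Benjamini-Hochberg adjustment over all genes tested, threshold 0.05. The script was tested on simulated data. The SE of a log2 fold change is its absolute value divided by the square root of the F of that test, not a fitted standard error. DESeq2 1.42.0 was an alternative. At E17.5 a gene passed at 2-fold with at least 20 UMIs. Positions came from the GENCODE GRCm38 annotation and promoters from RefSeq, by symbol. Named genes were up to 4 passing genes of largest change per list, otherwise the 2 with most UMIs (3 for other Sprr genes), and the 8 most alike; the text gives those that bear on the Sprr genes, and Pkp1, Fos, Dsp and Lyz2 were named after their values were seen. Python 3.11.15, pandas 2.3.3 and scipy 1.17.1 were used.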

Additional observations from a re-analysis of the deposited data

Results flagged for a closer look

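Some Sprr signal of single cKO libraries lay outside the gates, above the highest control library of the same stage, but not in every library or class of cells. In MOF cKO 5 at E15.5, the 7 genes were at 3.62 CPM in kept cells of no gate (highest control 1.96), 12.4 CPM in cells of 1000 genes or fewer (1.32), 32.1 CPM in cells of 6000 genes or more (19.3) and 67.4 CPM in cells of at least 10% mitochondrial UMIs (6.90). Cells with suprabasal keratin counts held 218 of the 365 Sprr UMIs in cells of 1000 genes or fewer. They held 396 of 422 in cells of 6000 genes or more and 62 of 70 in the mitochondrial class. At E16.5, cells of 1000 genes or fewer were at 58.0 CPM in MOF cKO 1 and 24.7 CPM in MOF cKO 2 (highest control 9.24). In MOF cKO 2, 6 cells of 6000 genes or more were at 32.2 CPM (3.35), from 10 UMIs. In MOF cKO 1, 28 cells of at least 10% mitochondrial UMIs held the genes at 536 CPM (5.36), and 1 of them, with suprabasal keratin counts, held 99 of the 108 UMIs. At E17.5, QPC cKO was at 2.17 CPM in kept cells of no gate (control 0.737), 16.4 CPM in cells of 6000 genes or more (5.85) and 17.1 CPM in cells of at least 10% mitochondrial UMIs (6.96). Cells with suprabasal keratin counts held 938 of the 1206 UMIs in cells of 6000 genes or more and 76 of 116 in the mitochondrial class. The order was the other way in kept cells of no gate at E16.5, where control 1 was at 243 CPM, above MOF cKO 1 (94.6) and MOF cKO 2 (151), with 324 of its 328 UMIs in the 2 cells rich in Krt4 and Krt13. MOF cKO 6 at E15.5 was also under the highest control in cells of no gate (1.05) and of 6000 genes or more (17.9).

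In 3 genes of the lists, both MOF cKO libraries lay on one side of the controls at E16.5 and on the other at E15.5, and the difference between the stages was not tested. Dsp, a desmosomal linker, had log2 fold changes of 1.57 at E16.5 and -0.06 at E15.5 in basal cells. Fos, a subunit of AP-1, had 1.28 and -0.48 in suprabasal cells, and Pkp1, a desmosomal plakophilin, 1.17 and -0.39. None of these changes passed the edgeR test at either stage.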

How the results depend on the processing

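The number of genes that passed edgeR changed with several alternatives. Where 1 library was left out, the lone library left in its group was assumed to vary like the other group. At E15.5 (0 in both gates) it was 2 (basal) and 525 (suprabasal) with no low-count filter, 113 and 49 with DESeq2, and 0 to 7518 and 0 to 1762 when each library was left out, the highest without MOF cKO 6 (747 and 38 without MOF cKO 5). In basal cells at E16.5 (23) it was 991 with no filter, 295 with DESeq2, 12 with mitochondrial UMIs under 5%, 765 with the gate per 10000 UMIs, 107 without cells of 1% collagen UMIs, 0 with no upper limit on genes (chosen after seeing the data) and 0 to 434 leaving out each library, with 0 without either MOF cKO library, 57 without control 1 and 434 without control 2. In suprabasal cells at E16.5 (172) it was 305 scaled by library size alone (126 rose and 179 fell, with the median of all genes at -0.58), 636 with no filter, 110 with the gate per 10000 UMIs, and 30 to 247 leaving out each library, with 30 without MOF cKO 1 and 114 without MOF cKO 2. Of 14 named genes other than Sprr genes that passed there, 5 kept passing without MOF cKO 1, 7 without MOF cKO 2 and 10 without control 2. Ivl, Krt6b and Krt16 in basal cells did not pass without either MOF cKO library or with no upper limit on genes.

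The study describes paired samples with littermate controls at E16.5, but not whether equal replicate numbers mark the pairs. Deviations of libraries with the same number had a correlation of -0.0777 in basal and -0.0384 in suprabasal cells. With so few MOF cKO cells, these values cannot show whether the libraries were paired. A replicate block gave 52 passing genes in basal and 88 in suprabasal cells, 79 of them shared with the 172, and 10 of the 14 named genes among them. With this block Krt17 (edgeR adjusted p = 0.0606), Stat3 (0.0688), Tgm1 (0.0862) and Elf3 (0.0913) did not pass.

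The summed Sprr log2 ratio kept its direction at E15.5 and E16.5 under all alternatives run. It was 1.83 instead of 1.14 in E15.5 basal cells with the gate per 10000 UMIs, and leaving out each library gave 0.90 to 1.43 there, 1.18 to 4.12 in E15.5 suprabasal, 2.46 to 11.02 in E16.5 basal (11.02 without control 2) and 4.23 to 5.93 in E16.5 suprabasal cells. At E17.5, the basal ratio of 0.49 was -1.26 with mitochondrial UMIs under 5%, -0.13 without cells of 1% collagen UMIs and 1.12 with no upper limit on genes, and the suprabasal ratio of 2.18 was 2.98 with mitochondrial UMIs under 5% and 1.78 with no upper limit. Thinning lowered the share of positive cells by more than its interval in 15 of 20 values. With 9 to 22 MOF cKO cells per gate at E16.5, and 2 libraries per group, small differences were not detectable.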
